A study of Homo sapiens with 32 samples.

Results

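The genes of the cap-binding step of translation initiation were followed at the mRNA level in MCF10A and MDA-MB-231 cells. They were the cap-binding proteins EIF4E, EIF4E2 and EIF4E3, the 4E-binding proteins EIF4EBP1, EIF4EBP2 and EIF4EBP3, the eIF4G scaffold family EIF4G1, EIF4G2 and EIF4G3, and the eIF4E transporter EIF4ENIF1. Members were the rows of both count tables that carried 1 of these symbols and the protein-coding biotype, which gave 10 of 60554 rows and 10 of 19815 protein-coding rows. The rule used symbols and biotype and no measured value, though earlier results of these data were known when the set was chosen. MCF10A is an immortalised, non-tumourigenic breast epithelial line, and MDA-MB-231 is a breast carcinoma line of the triple-negative type. Each line was cultured in normoxia (N), in hypoxia at 0.5% O2 for 24 hours (H), in normoxia with the mTOR kinase inhibitor PP242 at 2.5 µM for 3 hours (NPP) and in hypoxia with PP242 (HPP). Cells without PP242 received the same amount of its solvent DMSO. From every culture, total mRNA (T) and the mRNA of the polysomal fractions of a sucrose gradient (P) were sequenced, which gave 32 libraries in 16 groups of 2 biological replicates. The library totals ran from 18340916 to 46032327 counts with a median of 34561484. The 10 members together took between 0.0813% and 0.258% of a library.

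In translation initiation, eIF4E binds the cap of an mRNA, and the scaffold eIF4G joins it to the helicase eIF4A and to the small ribosomal subunit. The 4E-BPs are small proteins that occupy the eIF4G-binding face of eIF4E. The kinase mTORC1 phosphorylates them, after which they release eIF4E, so an mTOR inhibitor such as PP242 keeps them bound to it. This control acts on the proteins, and the libraries report mRNA levels, not phosphorylation or protein amounts. All levels were shares of a library, given as CPM (counts relative to the library size) after scaling by the trimmed mean of M values (TMM) within a line, so a change in the overall amount of mRNA or of polysomes in the cells was not visible. Levels of different lines are therefore not on a common scale. Tests of a difference between the lines used a joint fit of all libraries.

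In MCF10A, 4 libraries stood apart from the rest by transcript length. The measure was the median log2 level of transcripts in the longest quartile (5177 bases or more in MCF10A) minus that of the shortest (2016 bases or fewer), each gene taken relative to its mean over the libraries of the same line and fraction. In MCF10A total mRNA it was -1.29 in NPP replicate 2 and -0.67 in HPP replicate 2, against -0.12 to 0.61 in the other 6 libraries. In MCF10A polysomal mRNA it was -0.81 in N replicate 1 and -0.49 in H replicate 1, against -0.03 to 0.46 in the other 6. In MDA-MB-231 it stayed between -0.37 and 0.26. The members differ widely in length, from 693 bases in EIF4EBP3 and 827 in EIF4EBP1 to 7491 in EIF4EBP2 and 9978 in EIF4E3 (canonical transcripts of GENCODE release 44), and the treatment calls of the members in MCF10A are given with and without these 4 libraries.

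The treatment labels were checked on genes known to respond. CA9, a carbonic anhydrase induced by low oxygen, rose in hypoxia in all 4 combinations of line and fraction, for example by 5.95 ± 0.48 on the log2 scale (SE) in MCF10A total mRNA and by 5.46 ± 0.67 in MDA-MB-231 total mRNA. NDRG1 and ANKRD37 also rose in all 4. PDK1 passed in both fractions of MDA-MB-231 and in neither of MCF10A (edgeR, adjusted p = 0.113 in T and 0.16 in P). VEGFA passed in none (edgeR, adjusted p = 0.0816 and 0.0878 in MCF10A T and P, 0.164 and 0.0734 in MDA-MB-231). RPL32 and RPS6, ribosomal proteins whose mRNAs start with an mTOR-controlled pyrimidine tract, fell in the polysomal mRNA of MDA-MB-231 under NPP by 1.53 and 1.43 (log2, adjusted p = 0.00072 and 0.00114). EEF2 and PABPC1, of the same class, had estimates of -0.65 and -0.78 there that did not pass (adjusted p = 0.276 and 0.0963). In MCF10A P none of these 4 passed under NPP (RPL32 -2.72, adjusted p = 0.0676, and RPS6 -1.83, adjusted p = 0.121), and RPL32 and RPS6 fell under HPP with log2 fold changes of -3.84 and -2.71 (adjusted p = 0.00226 and 0.00458). EEF2 and PABPC1 did not pass there under HPP (-1.23 and -0.76, edgeR, adjusted p = 0.116 and 0.468). In MCF10A total mRNA the level of KRT5, a basal keratin, was 1190 to 2553 CPM, against 0 to 0.284 CPM in MDA-MB-231. Other epithelial markers were nearly absent from the MCF10A libraries: CDH1 had 0 to 16 counts, TP63 0 to 10 counts and EPCAM 4 to 16 counts per library, while the mesenchymal marker VIM reached 1691 to 9370 CPM. CDH2, the mesenchymal cadherin, was at 28.2 to 87.7 CPM in MCF10A, against 0.407 to 1.53 CPM in MDA-MB-231, and EPCAM at 9.86 to 19.1 CPM was higher in MDA-MB-231. The mesenchymal marker ZEB1 went the other way, at 4.69 to 32.6 CPM in MCF10A and 43.6 to 88.2 CPM in MDA-MB-231. In the joint fit of normoxia its line difference was 1.14 in T and 1.53 in P (edgeR, adjusted p = 0.102 and 0.0287). VIM was at 3113 to 6082 CPM in MDA-MB-231, and its line difference did not pass (0.22 and 0.08, adjusted p = 0.665 and 0.874). The MCF10A libraries thus held basal keratins without the other epithelial markers, which goes against the epithelial label in part, and MCF10A is used here as the name the labels give. The basal keratins KRT14 and KRT17 rose under HPP in MCF10A, KRT14 by 2.37 in T and 2.28 in P (adjusted p = 0.00565 and 0.00525) and KRT17 by 3.29 and 2.35 (adjusted p = 0.0102 and 0.0299). KRT5 had estimates of 0.52 and 0.91 that did not pass (adjusted p = 0.368 and 0.0866). VIM rose there in T by 1.73 (adjusted p = 0.0325). EPCAM fell under HPP in MDA-MB-231 P (-0.57, adjusted p = 0.0368), and the part of such marker changes in the results on the members was not tested. In MDA-MB-231 the estrogen and progesterone receptor genes ESR1 and PGR had at most 7 and 12 counts, and ERBB2, the receptor HER2, had 565 to 1785 counts (25.7 to 46.5 CPM). Markers of cells that a breast culture could hold were low in both lines, with PTPRC (leukocytes) at 0 to 1.14 CPM, PECAM1 (endothelium) at 0.105 to 2.17 CPM and PDGFRA (fibroblasts) at 0 to 0.284 CPM, and COL1A1, a collagen of fibroblasts, at 3.62 to 19.2 CPM. Of these, COL1A1 and PECAM1 rose under HPP in MCF10A, COL1A1 by 1.205 in T and 1.69 in P (log2, adjusted p = 0.0151 and 0.00225) and PECAM1, with 3 to 71 counts per library, by 2.56 and 2.45 (adjusted p = 0.0227 and 0.0223). COL1A1 rose under H alone as well, by 1.68 in T and 1.47 in P (adjusted p = 0.0121 and 0.0254). PTPRC and PDGFRA did not pass the count filter in MCF10A, and the part of other cells in the HPP changes was not tested.

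Per transcript length, the mRNA of EIF4G2 was the most abundant of the 10 in normoxic total mRNA of both lines, and those of EIF4E3 and EIF4EBP3 were the least. EIF4G2 codes for a scaffold that resembles eIF4G but lacks its eIF4E-binding part. Its level was 207 ± 34.2 RPKM (CPM divided by the transcript length in kilobases, mean ± SD, n = 2) in MCF10A and 413 ± 35.4 RPKM in MDA-MB-231. Each line was scaled on its own, so these values do not measure a difference between the lines. In MCF10A the order went on with EIF4EBP1 (76.04 ± 18.1 RPKM) and EIF4E2 (67.7 ± 6.18 RPKM), whose replicate ranges overlapped, then EIF4G1 (51.3 ± 2.70 RPKM) and EIF4E (50.2 ± 1.61 RPKM), which overlapped as well. EIF4G3 (9.28 RPKM), EIF4EBP2 (7.36 RPKM), EIF4ENIF1 (6.76 RPKM), EIF4EBP3 (2.46 RPKM) and EIF4E3 (0.423 RPKM) followed with no overlap between neighbours. In MDA-MB-231 the order was EIF4EBP1 (111.9 ± 13.6 RPKM), EIF4G1 (84.0 ± 8.31 RPKM), EIF4E (68.2 ± 0.278 RPKM) and EIF4E2 (66.5 ± 3.99 RPKM), of which EIF4E and EIF4E2 overlapped. There EIF4EBP2 (16.8 RPKM) stood above EIF4G3 (8.92 RPKM), EIF4ENIF1 (5.03 RPKM) followed, and EIF4EBP3 (0.328 RPKM) and EIF4E3 (0.138 RPKM) overlapped at the low end. The place of EIF4E2 rests on the transcript chosen: its canonical transcript has 967 bases and the union of its exons 11481, and with the union it came 6th in total mRNA of both lines.

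**Figure D1:**
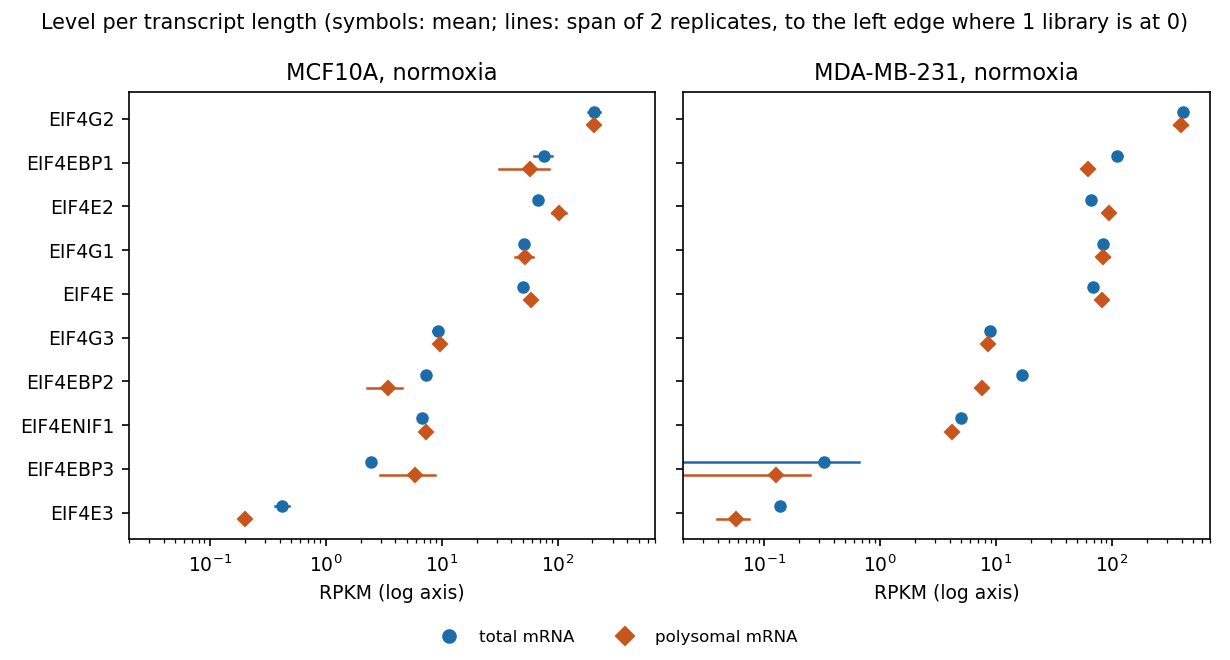
Level per transcript length of the 10 members in normoxia (RPKM, log axis), with total mRNA as circles, polysomal mRNA as diamonds and lines spanning the 2 replicates, for MCF10A (left) and MDA-MB-231 (right). EIF4G2 lies furthest right in both lines at 207 and 413 RPKM in total mRNA, and the lines of EIF4EBP3 in MDA-MB-231 reach the left edge because 1 of 2 libraries was at 0. Each panel was scaled within its own line, so the panels do not share a common scale.

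All 10 members passed the filter on low counts in each line, and the tests were edgeR quasi-likelihood tests with Benjamini-Hochberg adjustment over all tested genes of a line (13124 in MCF10A and 13510 in MDA-MB-231). Under H alone 0 of 10 members had an adjusted p under 0.05 in any of the 4 combinations, where 1.54% (MCF10A T), 1.49% (MCF10A P), 1.27% (MDA-MB-231 T) and 2.29% (MDA-MB-231 P) of all tested genes did. Under NPP alone the count was again 0, against 0.648%, 0.823%, 0.555% and 1.95% of tested genes in the same order. At an unadjusted p under 0.05, 1, 0, 0 and 1 members passed under H (10.9%, 12.5%, 12.7% and 17.2% of tested genes) and 1, 2, 2 and 3 under NPP (9.54%, 13.3%, 10.3% and 13.6%). DESeq2 called 0, 0, 0 and 1 under H (3.83%, 4.24%, 2.77% and 5.23%) and 1, 0, 0 and 2 under NPP (2.84%, 5.17%, 2.06% and 4.53%). Under HPP against N, 2 members passed in MCF10A T (14.9% of tested genes), 2 in MCF10A P (22.2%), 2 in MDA-MB-231 T (13.2%) and 4 in MDA-MB-231 P (19.4%). Under HPP against H, 2 passed in MCF10A T (3.74% of tested genes), 1 in MCF10A P (6.5%), 1 in MDA-MB-231 T (3.78%) and 3 in MDA-MB-231 P (11.5%). Each of these calls was downward. Of all tested genes, 7.47%, 11.9%, 6.91% and 9.73% fell under HPP against N, and 2.42%, 3.87%, 2.08% and 6.62% under HPP against H, in the same order. The median log2 fold change of the 10 members under HPP was -0.26 in MCF10A T, -0.77 in MCF10A P, -0.21 in MDA-MB-231 T and -0.26 in MDA-MB-231 P, beside medians of all tested genes of -0.01, -0.04, -0.05 and 0.01. Comparisons with N share the N libraries of a line and fraction, so they are not independent of each other.

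**Figure D2:**
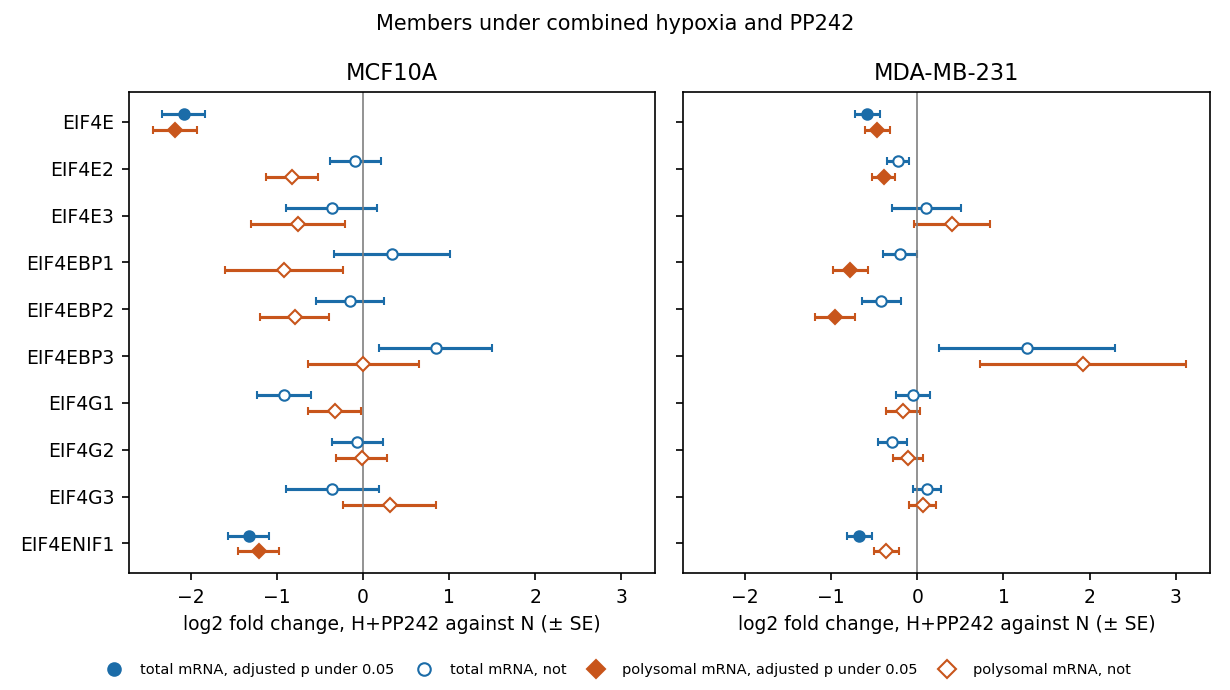
Log2 fold change of each member under hypoxia with PP242 against normoxia, with its standard error, in total mRNA (circles) and polysomal mRNA (diamonds) of MCF10A (left) and MDA-MB-231 (right). Filled symbols have an adjusted p under 0.05 in the edgeR test. EIF4E in MCF10A lies furthest left, at -2.09 in total and -2.19 in polysomal mRNA.

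EIF4E (chr4:98879276-98929133, minus strand, GRCh38), the cap-binding subunit of eIF4F, fell under HPP in both lines and both fractions, and in MCF10A it had the largest decrease of the 10 members. In MDA-MB-231 the estimates of EIF4ENIF1 in T and of EIF4EBP1 and EIF4EBP2 in P were larger. In MCF10A total mRNA its level was 124.6 and 119 CPM in N, 84.0 and 80.6 CPM in H, 78.2 and 54.5 CPM in NPP, and 31.9 and 25.5 CPM in HPP. Both libraries of each treatment lay below both normoxic ones, and the HPP libraries lay below all others. The HPP level was 0.236 times the normoxic level (log2 fold change -2.09 ± 0.25, SE, adjusted p = 0.000473). In MCF10A polysomal mRNA it was 131 and 154 CPM in N, 108.6 and 92.0 CPM in H, 93.4 and 97.7 CPM in NPP, and 36.1 and 26.5 CPM in HPP. All treated libraries again lay below the normoxic ones, and those of HPP were the lowest. The HPP level there was 0.219 times that of N (-2.19 ± 0.25, adjusted p = 0.000297). PP242 within hypoxia lowered EIF4E as well, by 1.52 (adjusted p = 0.00726) in T and by 1.68 (adjusted p = 0.00411) in P. For H and NPP alone the estimates in T were -0.57 ± 0.24 and -0.88 ± 0.25 with adjusted p of 0.422 and 0.19, and those in P were -0.51 and -0.58 with adjusted p of 0.433 and 0.33. EIF4E had 760 to 7699 counts per MCF10A library.

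In MDA-MB-231 the change of EIF4E was smaller. In total mRNA its level was 165 and 166 CPM in N, 159 and 211 CPM in H, 127 and 130 CPM in NPP, and 122 and 98.98 CPM in HPP. The H libraries straddled the normoxic ones, and the NPP and HPP libraries lay below them. The HPP level was 0.668 times that of N (-0.58 ± 0.15, adjusted p = 0.0197). In polysomal mRNA it was 196 and 200.0 CPM in N, 203 and 188 CPM in H, 155 and 170 CPM in NPP, and 145 and 142 CPM in HPP (-0.46 ± 0.15 for HPP, adjusted p = 0.0398). PP242 within hypoxia lowered it by 0.74 in T (adjusted p = 0.0166), and the estimate in P was -0.45 with an adjusted p of 0.0644. Without any 1 of the 4 libraries compared, the HPP change in P kept its size (-0.49 to -0.44) and lost its call each time (adjusted p up to 0.161). In T it ran from -0.68 to -0.38 and lost its call without HPP replicate 2, N replicate 1 or N replicate 2 (adjusted p up to 0.217). The T change of HPP against H ran from -0.93 to -0.51 and was not called without HPP replicate 2 or H replicate 2 (adjusted p = 0.207 and 0.157). In MCF10A the HPP calls of EIF4E held without each library in turn (-2.16 to -1.93 in T, -2.43 to -1.98 in P) and without the 4 libraries that stood apart (-1.94 in T and -2.28 in P, adjusted p = 0.00168 and 0.000347), as did those against H without the 4 (-1.37 and -1.54, adjusted p = 0.0183 and 0.00588). The call of HPP against H in MCF10A P was lost without HPP replicate 2 (-1.48, adjusted p = 0.0573), and that in T without HPP replicate 2, H replicate 1 or H replicate 2 (adjusted p = 0.0843, 0.0608 and 0.0548). Both were also lost with only the libraries compared in the fit (adjusted p = 0.0642 in P and 0.161 in T).

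**Figure D3:**
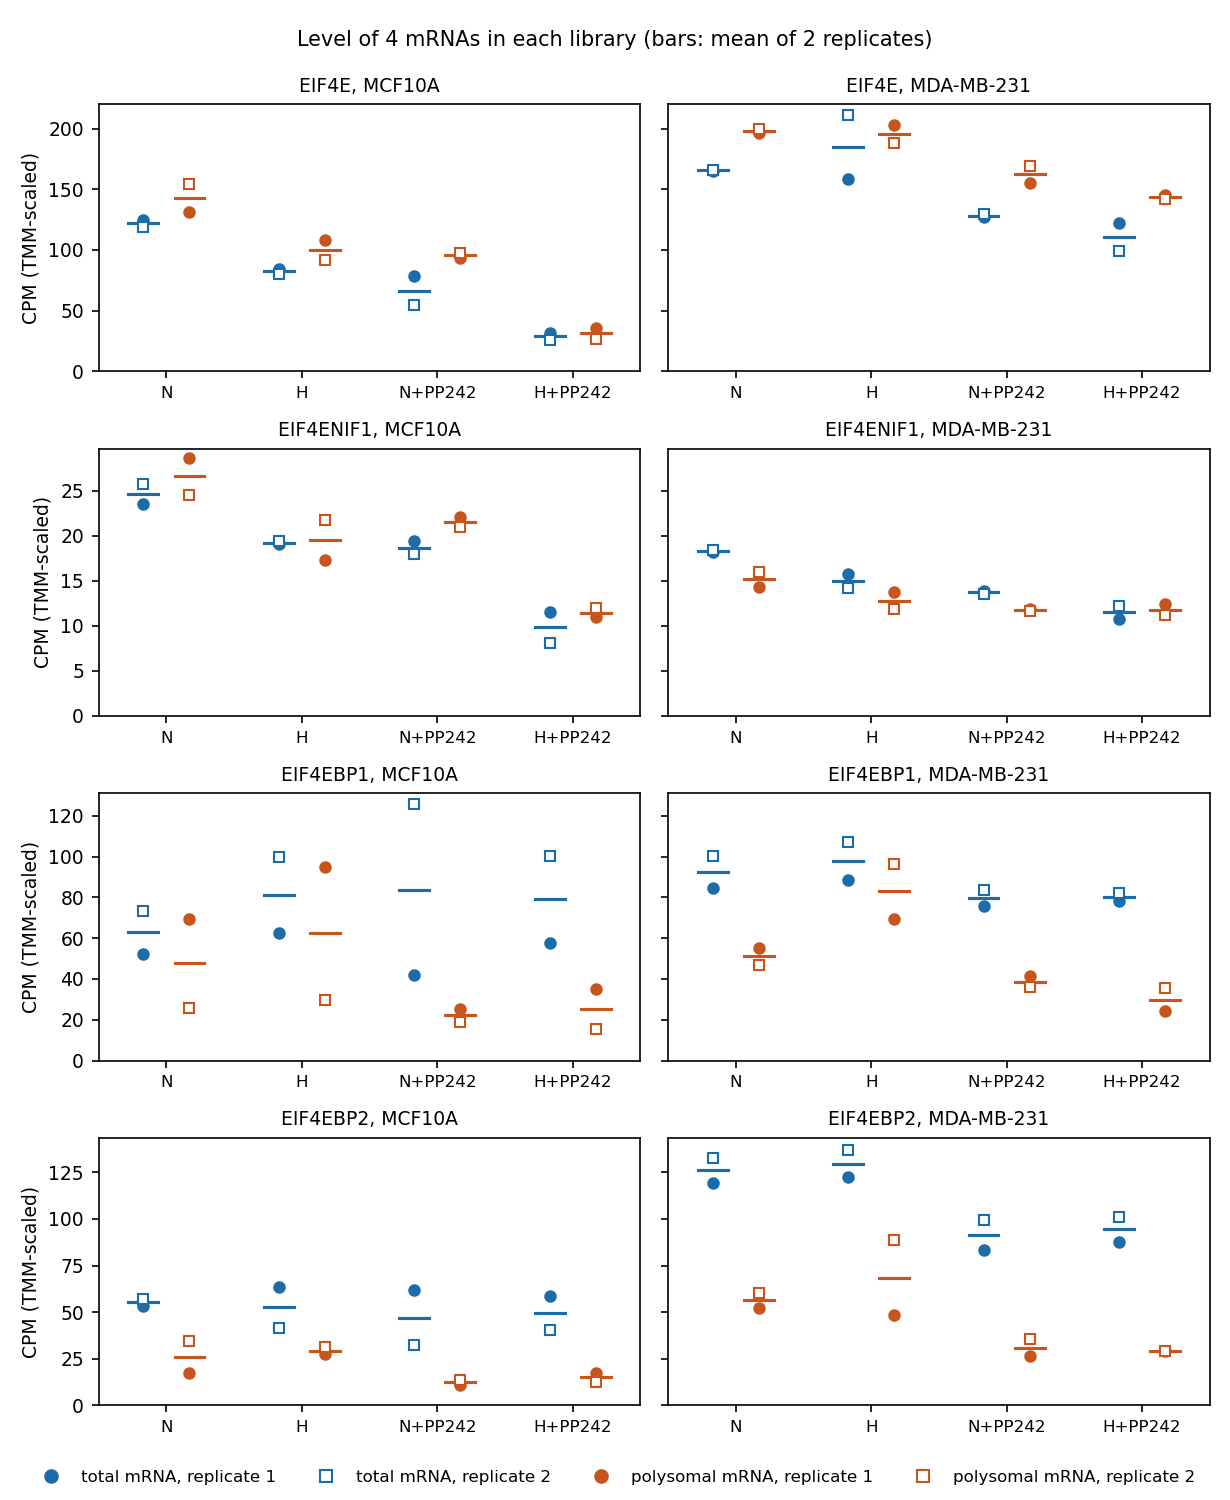
Level of EIF4E, EIF4ENIF1, EIF4EBP1 and EIF4EBP2 in each library (CPM, axes from 0) under N, H, NPP and HPP, with total mRNA in blue, polysomal mRNA in orange, replicate 1 as filled circles, replicate 2 as open squares and bars at the mean of 2. EIF4E in MCF10A steps down to 25.5 to 36.1 CPM in HPP, and the 2 replicates of EIF4EBP1 in MCF10A lie far apart.

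The promoter windows of EIF4E and EIF4G1, the pair that meets directly on the cap, held the hexamer CACGTG at 2 places each, for EIF4G1 in 1 of its 3 windows. This sequence, an E-box, is known to be bound by MYC with its partner MAX. They are shown because EIF4E had the largest treatment change in MCF10A and EIF4G1 is the scaffold it binds. Windows ran from 250 bases before to 50 after each annotated start (RefSeq, GRCh38.p14). The 24-base surroundings are given 5′ to 3′ on the strand of the gene, with the hexamer in capitals and its first base counted from the start site.
EIF4E at -225, chr4:98929344-98929367, minus strand: cccatcggcCACGTGaccagtcct
EIF4E at -72, chr4:98929191-98929214, minus strand: catatccgtCACGTGgccagaagc
EIF4G1 at -144, chr3:184314453-184314476, plus strand: tgtggctgtCACGTGacggggcgg
EIF4G1 at -67, chr3:184314530-184314553, plus strand: tgcgccggtCACGTGggggcgccg
CACGTG is its own reverse complement, so a match on one strand is a match on the other. EIF4EBP3 held it once, at -13, and no window of EIF4E2, EIF4E3, EIF4EBP2, EIF4G2, EIF4G3 or EIF4ENIF1 did. Of all 35116 promoter windows, 7.26% held CACGTG, and of 27305 genes 8.77% had at least 1 such window. The match describes letters in these windows, and binding was not measured.

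EIF4ENIF1 (chr22:31436977-31496108, minus strand) codes for 4E-T, which binds eIF4E and carries it into the nucleus and processing bodies. It was the other member with a decrease that passed in both lines. In MCF10A total mRNA its level was 23.6 and 25.8 CPM in N, 19.1 and 19.4 CPM in H, 19.4 and 17.96 CPM in NPP, and 11.5 and 8.12 CPM in HPP. All treated libraries lay below the normoxic ones. The log2 fold change under HPP was -1.33 ± 0.24 (adjusted p = 0.00375). In MCF10A polysomal mRNA it was 28.7 and 24.6 CPM in N, 17.3 and 21.8 CPM in H, 22.1 and 21.0 CPM in NPP, and 10.9 and 12.0 CPM in HPP (-1.21 ± 0.24, adjusted p = 0.00461). PP242 within hypoxia lowered it by 0.97 in T (adjusted p = 0.0442), and the estimate in P was -0.77 with an adjusted p of 0.0807, which passed without the 4 libraries that stood apart (-0.90, adjusted p = 0.03) and with the offset for transcript length (-0.82, adjusted p = 0.0132). In MDA-MB-231 total mRNA it was 18.2 and 18.5 CPM in N, 15.7 and 14.2 CPM in H, 13.9 and 13.5 CPM in NPP, and 10.8 and 12.2 CPM in HPP (-0.67 ± 0.15 for HPP, adjusted p = 0.00936). In MDA-MB-231 polysomal mRNA the normoxic 14.3 and 16.01 CPM stood above the 12.4 and 11.2 CPM of HPP, with a change of -0.36 ± 0.15 that did not pass (adjusted p = 0.0954) and did with the offset (-0.43, adjusted p = 0.0309). The HPP call in MCF10A T was lost without HPP replicate 2 (-1.09, adjusted p = 0.0618) and held with all 4 libraries that stood apart left out (-1.10, adjusted p = 0.0114), as did that in P (-1.08, adjusted p = 0.00607). The call of HPP against H in T was lost without any 1 of its 4 libraries (adjusted p up to 0.313) and without the 4 that stood apart (-0.75, adjusted p = 0.0953). With only the libraries compared in the fit, the MCF10A changes under HPP no longer passed (adjusted p = 0.0516 in T and 0.0549 in P). The call in MDA-MB-231 T was lost without HPP replicate 1 (-0.52, adjusted p = 0.115) or N replicate 2 (-0.66, adjusted p = 0.0639).

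EIF4EBP1, the 4E-BP best known as an mTORC1 substrate, changed in the polysomal mRNA of MDA-MB-231. Its level there was 55.3 and 46.9 CPM in N, 69.2 and 96.6 CPM in H, 41.3 and 36.0 CPM in NPP, and 24.1 and 35.5 CPM in HPP. The H libraries lay above both normoxic ones and the NPP and HPP libraries below both. The change under HPP was -0.78 ± 0.20 against N (adjusted p = 0.0151) and -1.48 ± 0.20 against H (adjusted p = 0.000394), and the estimate for H alone was 0.70 ± 0.20 with an adjusted p of 0.0845, which passed with a replicate block (0.68, adjusted p = 0.0437) and with DESeq2 (0.67, adjusted p = 0.0305). That estimate for H also passed without the count filter. It did not pass with a replicate block within each fraction, RLE scaling, an offset for transcript length or only the libraries compared. In MDA-MB-231 total mRNA all libraries lay between 76.04 and 107.1 CPM, and the change under HPP was -0.20 ± 0.20 (adjusted p = 0.534). The HPP call against N was lost without HPP replicate 1 (-0.51, adjusted p = 0.18) or N replicate 1 (-0.66, adjusted p = 0.0849), and the call against H held without each of its 4 libraries (-1.78 to -1.21). With an offset for transcript length the HPP estimate against N was -0.47 (adjusted p = 0.0761) and that against H -0.98 (adjusted p = 0.00388). In MCF10A the replicates of EIF4EBP1 lay far apart. Its polysomal level was 69.5 and 25.8 CPM in N, 95.1 and 29.8 CPM in H, 25.5 and 18.9 CPM in NPP, and 35.03 and 15.3 CPM in HPP, with the high values of N and H in the replicate 1 libraries that stood apart by transcript length. The HPP estimate of -0.92 ± 0.68 (adjusted p = 0.36) moved to -0.02 (adjusted p = 0.979) without the 4 libraries, and passed with a replicate block within each fraction (-0.88, adjusted p = 0.0498). Against H the HPP estimate was -1.31 (adjusted p = 0.309), -0.23 (adjusted p = 0.792) without the 4 and -1.22 (adjusted p = 0.0264) with that block. In each replicate number the HPP library lay below the N and H libraries. In MCF10A total mRNA replicate 1 ran from 41.8 to 62.6 CPM and replicate 2 from 73.5 to 126 CPM over the 4 conditions, so the values of the 2 replicates did not overlap.

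EIF4EBP2 (chr10:70404145-70428618, plus strand), the second 4E-BP, also fell in the polysomal mRNA of MDA-MB-231. Its level was 52.4 and 60.3 CPM in N, 48.5 and 88.6 CPM in H, 26.2 and 35.7 CPM in NPP, and 29.3 and 28.9 CPM in HPP, with all PP242-treated libraries below all others. The change under HPP was -0.96 ± 0.23 against N (adjusted p = 0.0105) and -1.24 ± 0.23 against H (adjusted p = 0.0037), and that of NPP was -0.87 ± 0.23 with an adjusted p of 0.0738, which passed with a replicate block (adjusted p = 0.0103) and with DESeq2 (adjusted p = 0.00548). In total mRNA it was 120 and 133 CPM in N, 122 and 137 CPM in H, 83.5 and 99.7 CPM in NPP, and 87.7 and 101.1 CPM in HPP, which is the same division with a smaller step that did not pass (-0.42 ± 0.22 for HPP, adjusted p = 0.239). The HPP call in P was lost without HPP replicate 1, HPP replicate 2 or N replicate 2 (adjusted p = 0.0734, 0.0631 and 0.0544), and the call against H held without each library (-1.61 to -0.74). In MCF10A polysomal mRNA it was 17.2 and 34.3 CPM in N, 27.3 and 31.4 CPM in H, 10.9 and 13.4 CPM in NPP, and 17.5 and 12.2 CPM in HPP. The N and HPP ranges overlapped by the low N replicate 1, which is 1 of the libraries that stood apart. The HPP estimate was -0.79 ± 0.40 (adjusted p = 0.175) with all libraries and -1.19 (adjusted p = 0.0176) without the 4, and with an offset for transcript length it was -0.95 (adjusted p = 0.00918). For NPP the estimate was -1.08 (adjusted p = 0.248), and it was -1.49 (adjusted p = 0.0418) without the 4 and -1.12 (adjusted p = 0.0178) with the offset. Against H, the HPP estimate was -0.98 (adjusted p = 0.184), -1.06 (adjusted p = 0.0554) and -1.13 (adjusted p = 0.00795) in the same order.

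Transcripts that begin with a pyrimidine tract are known to leave polysomes when mTOR is inhibited. The start of EIF4EBP2 is therefore shown next to that of EEF2, an elongation factor whose mRNA begins with such a tract. The sequences give 10 bases before the annotated start in lower case and the first 10 transcribed bases in capitals, 5′ to 3′ (RefSeq, GRCh38.p14).
EEF2, start at position 3985463 of chromosome 19, minus strand: cgtcagcgttCTCTTCCGCC
EIF4EBP2, start at position 70404145 of chromosome 10, plus strand: gccttcgcccGCTTCCGGTC
A C followed by at least 4 pyrimidines at the start was found in EEF2, in 4.07% of all windows, and in no annotated start of the members with an entry. The start sites used in these cells were not measured.

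EIF4EBP3, the third 4E-BP, was scarcely measured in MDA-MB-231. It had 0 to 20 counts in T and 0 to 14 counts in P there, and 45 to 115 and 55 to 174 counts in MCF10A. In MCF10A total mRNA its level was 1.80 and 1.60 CPM in N, 1.05 and 1.82 CPM in H, 1.86 and 4.81 CPM in NPP, and 2.38 and 3.73 CPM in HPP, with the highest values in the 2 libraries that stood apart. With all libraries no treatment contrast of EIF4EBP3 passed in either line (adjusted p of 0.449 and 0.998 for HPP in MCF10A T and P). The MCF10A polysomal estimates depended on the 4 libraries and on the offset for transcript length. That of HPP against N was 0.004 with all libraries, 1.00 (adjusted p = 0.102) without the 4 and 0.94 (adjusted p = 0.0339) with the offset. That of HPP against H was 0.49 (adjusted p = 0.727), 1.73 (adjusted p = 0.0383) and 1.34 (adjusted p = 0.0138) in the same order. The readthrough gene ANKHD1-EIF4EBP3, which joins the upstream ANKHD1 to EIF4EBP3 and shares its sequence, stood at 7.08 to 48.7 CPM in MCF10A, against 20.99 to 44.4 CPM in the other line. How reads were split between the genes was set by the quantification, which makes the small value of EIF4EBP3 uncertain.

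EIF4E2 (chr2:232550659-232583644, plus strand), the cap-binding homologue known as 4EHP, fell under HPP in the polysomal mRNA of MDA-MB-231. Its level there was 93.1 and 88.9 CPM in N, 95.7 and 94.6 CPM in H, 63.2 and 75.6 CPM in NPP, and 70.3 and 68.5 CPM in HPP, so both PP242 conditions lay below both conditions without it. The change under HPP was -0.39 ± 0.13 against N (adjusted p = 0.0492) and -0.46 ± 0.13 against H (adjusted p = 0.0369). Both calls were lost without any 1 of their 4 libraries (adjusted p up to 0.188 and 0.174) and without the count filter (adjusted p = 0.281 and 0.138), and with an offset for transcript length the estimates were -0.12 and -0.03 (adjusted p = 0.541 and 0.922). In MCF10A polysomal mRNA it was 115 and 86.1 CPM in N, 111.8 and 79.1 CPM in H, 59.4 and 73.3 CPM in NPP, and 66.7 and 46.4 CPM in HPP, with an HPP change of -0.83 ± 0.30 (adjusted p = 0.0669). In total mRNA the HPP estimate was -0.09 ± 0.30 in MCF10A, against -0.23 ± 0.13 in the other line, and neither passed. The MCF10A polysomal estimate was -0.59 (adjusted p = 0.134) without the 4 libraries that stood apart and -0.24 (adjusted p = 0.407) with the offset, and it passed with DESeq2 (-0.82, adjusted p = 0.049) and with a replicate block within each fraction (-0.83, adjusted p = 0.0178). EIF4E3, the third cap-binding homologue, was low, with 0.519 to 5.50 CPM in MCF10A, against 0.392 to 1.82 CPM in the other line, and no treatment contrast of it passed.

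In the edgeR fit of all libraries with TMM scaling the eIF4G family gave no treatment call in either line, and EIF4G1 was called in MCF10A by some alternatives. EIF4G1 (chr3:184314495-184335358, plus strand), the main scaffold of eIF4F, stood in MCF10A total mRNA at 267 and 288 CPM in N, 290.1 and 231 CPM in H, 220.1 and 140.2 CPM in NPP, and 172 and 122 CPM in HPP. Both HPP libraries lay below both normoxic ones, with a change of -0.92 ± 0.31 (adjusted p = 0.0696), which was -0.69 (adjusted p = 0.103) without the 4 libraries that stood apart and -0.74 (adjusted p = 0.00767) with the offset for transcript length. DESeq2 (-0.86, adjusted p = 0.0287) and a replicate block within each fraction (-0.95, adjusted p = 0.0203) also called EIF4G1 there. With the offset, HPP against H in T (-0.64, adjusted p = 0.0339) and HPP against N in P (-0.49, adjusted p = 0.0428) were called as well. In MCF10A polysomal mRNA the level of EIF4G1 was 204 to 357 CPM with overlapping groups, and in MDA-MB-231 it was 345 to 560.0 CPM, with HPP estimates of -0.05 ± 0.20 in T and -0.16 ± 0.20 in P. EIF4G3, a close homologue, was at 18.8 CPM in NPP replicate 2 and 26.3 CPM in HPP replicate 2 of MCF10A total mRNA and at 45.4 to 75.7 CPM in the other 6 libraries. Those 2 libraries are the ones that stood apart, and without all 4 the HPP estimate in T moved from -0.36 to 0.16 (adjusted p = 0.719 and 0.751). In MDA-MB-231 EIF4G3 stayed between 52.7 and 76.4 CPM in all 16 libraries. EIF4G2 was at 558 to 951 CPM in MCF10A and at 1220 to 1696 CPM in the other line, each on the scale of its own line. Its HPP estimates were -0.07 ± 0.29 and -0.02 ± 0.29 in MCF10A T and P and -0.29 ± 0.17 and -0.11 ± 0.17 in MDA-MB-231.

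Whether both HPP libraries lay outside both normoxic ones was counted for each member, beside the same count over all tested genes. In MCF10A T, 3 of 10 members lay below and 1 above, where 32.3% of tested genes lay below and 29% above. In MCF10A P it was 4 below and 1 above (31.2% and 30.5%), in MDA-MB-231 T 6 below and 0 above (34% and 25.9%), and in MDA-MB-231 P 5 below and 1 above (30.5% and 33%). EIF4E and EIF4ENIF1 were below in all 4. With 2 libraries against 2, many genes separate in this way, and the count adds nothing to the tests.

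A change in translational efficiency was tested as the difference between the polysomal and the total fold change. By edgeR no member passed under any treatment in either line, where 0% of tested genes did under H, NPP and HPP in MCF10A, and 0.0148%, 0.34% and 0.696% did in MDA-MB-231. At an unadjusted p under 0.05 the only member was EIF4EBP1 under H in MDA-MB-231 (0.62 ± 0.28, adjusted p = 1), beside 1.33% of tested genes there. DESeq2 called 0 members in all 6 contrasts. Of all tested genes it called 0%, 14.3% and 4.37% in MCF10A under H, NPP and HPP. The MDA-MB-231 shares by DESeq2 were 0.0148%, 3.49% and 1.65%. T and P libraries came from the same cultures, and with the culture as a block 0 members passed as well. Of all tested genes, 0% passed with this block in each MCF10A contrast. In MDA-MB-231 the shares were 0.0148%, 0.0592% and 0.555% under H, NPP and HPP. For EIF4E the estimate under HPP was -0.10 ± 0.35 in MCF10A, against 0.12 ± 0.21 in the other line, so a difference between its polysomal and its total change was not detected within these errors. For EIF4EBP1 and EIF4EBP2 in MDA-MB-231 they were -0.57 ± 0.28 and -0.54 ± 0.32, and with the culture block -0.60 ± 0.25 and -0.53 ± 0.24, at unadjusted p of 0.0326 and 0.0491 (adjusted p = 1). By culture, the ratio of polysomal to total CPM of EIF4EBP2 in MDA-MB-231 was 0.439 and 0.455 in N, 0.396 and 0.645 in H, 0.314 and 0.358 in NPP, and 0.334 and 0.286 in HPP. That of EIF4EBP1 was 0.654 and 0.467 in N, 0.781 and 0.902 in H, 0.543 and 0.431 in NPP, and 0.307 and 0.432 in HPP. The 4 PP242-treated cultures were thus lowest for EIF4EBP2, and for EIF4EBP1 the ranges of N and NPP overlapped. Of the pyrimidine-tract mRNAs tested beside them, RPL32, RPS6 and EEF1A1 did pass in MDA-MB-231 under HPP (-2.01, -1.90 and -2.04) and NPP, and EEF2 and PABPC1 did not (-1.17 and -1.06 under HPP, adjusted p = 0.559 and 0.373). With the culture block the 3 passed under HPP alone (under NPP, adjusted p = 0.175, 0.141 and 0.0561). By edgeR without a block none of the 5 passed in MCF10A, where the HPP estimates ran from -4.20 (RPL32) to -0.50 (PABPC1). There RPL32, RPS6 and EEF1A1 passed under HPP with a replicate block within each fraction (adjusted p = 0.012, 0.0134 and 0.0239) and with DESeq2 (adjusted p = 0.000152, 0.00121 and 0.00133). They did not pass by edgeR with the replicate block (adjusted p = 0.466, 0.466 and 0.477) or the culture block (adjusted p = 0.945 for each). DESeq2 also called these 3 and EEF2 under NPP in MCF10A, and EEF2 and PABPC1 under HPP in MDA-MB-231 (adjusted p = 0.038 and 0.0162).

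**Figure D4:**
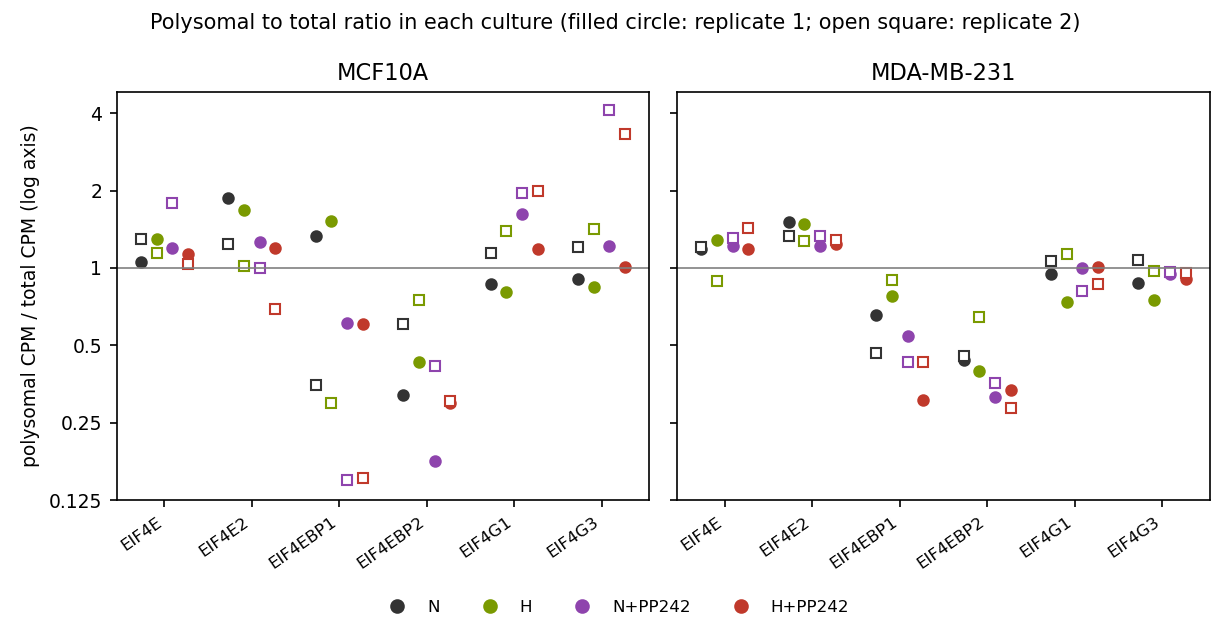
Ratio of polysomal to total CPM in each culture (log axis) for 6 members in MCF10A (left) and MDA-MB-231 (right), coloured by condition, with replicate 1 as filled circles and replicate 2 as open squares. The ratios of EIF4EBP1 and EIF4EBP2 in MDA-MB-231 lie below 1 in all 8 cultures, and EIF4G3 in MCF10A reaches 4.10 and 3.31 in NPP and HPP replicate 2, whose total libraries stood apart by transcript length.

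In normoxia, 3 of 10 members differed between polysomal and total mRNA of MDA-MB-231 (13.1% of tested genes did). EIF4EBP2 (-1.16 ± 0.23, adjusted p = 0.00583) and EIF4EBP1 (-0.86 ± 0.20, adjusted p = 0.014) took a smaller share of the polysomal than of the total library, and EIF4E2 a larger share (0.50 ± 0.13, adjusted p = 0.0244). Leaving out single libraries ended the call of EIF4EBP2 without P replicate 1 (adjusted p = 0.0625), of EIF4EBP1 without P replicate 2 or T replicate 2 (adjusted p = 0.0855 and 0.0875), and of EIF4E2 without P replicate 1, T replicate 1 or T replicate 2 (adjusted p up to 0.171). With the culture block these 3 kept their call, and EIF4E3 passed too (-1.29 ± 0.37, adjusted p = 0.0419), beside 13.5% of tested genes. In MCF10A 0 members passed and 0% of tested genes did, with 1 member, EIF4EBP2 (-1.10 ± 0.40, adjusted p = 0.342), at an unadjusted p under 0.05 (12.6% of tested genes) and 0 calls by DESeq2 (0.801%). The EIF4EBP2 estimate was -0.68 (adjusted p = 0.532) without the 4 libraries that stood apart and -1.18 (adjusted p = 0.58) with the culture block, under which again 0 members passed (0% of tested genes). For EIF4E the difference did not pass in MCF10A (0.23 ± 0.24, adjusted p = 0.794) or MDA-MB-231 (0.26 ± 0.15, adjusted p = 0.266).

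For a comparison of the lines, the 32 libraries were fitted together, with 14298 tested genes. Each line came in a table of its own, with barcodes of its own series, so the line and the table cannot be told apart. In normoxic total mRNA 3 members differed (40.7% of tested genes) and in normoxic polysomal mRNA 4 did (45.4%). Over the alternatives that kept the threshold and left out no single library, the count in T ran from 3 to 7 members, beside 28.8% to 59.2% of tested genes. EIF4E3, EIF4EBP3 and EIF4ENIF1 were lower in MDA-MB-231 in both fractions. EIF4E3 differed by -2.08 ± 0.48 in T and -2.11 ± 0.51 in P (adjusted p = 0.00145 and 0.00203), and EIF4ENIF1 by -0.89 ± 0.18 and -1.12 ± 0.18 (adjusted p = 0.000442 and 3.66e-05). EIF4EBP3 had between 69 and 174 counts in the 4 normoxic libraries of MCF10A. In MDA-MB-231 it had 0 and 8 counts in T and 4 and 0 counts in P. Its fitted difference of -3.60 ± 0.96 in T took values from -9.11 to -2.38 as single libraries were dropped, and the call was lost without T replicate 1 of MDA-MB-231 (adjusted p = 0.0821), so its size was not measured at this depth. EIF4G2 was higher in MDA-MB-231 in P (0.62 ± 0.24, adjusted p = 0.0382), and in T the estimate was 0.53 ± 0.24 (adjusted p = 0.0828). The P call was lost without the 4 libraries that stood apart (0.50, adjusted p = 0.155) and without N replicate 1 or 2 of MCF10A P or N replicate 2 of MDA-MB-231 P (adjusted p = 0.186, 0.0662 and 0.285). For EIF4E the normoxic estimates were -0.02 ± 0.19 in T and 0.16 ± 0.19 in P, and neither passed.

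The response of EIF4E to HPP differed between the lines. The fold change of MDA-MB-231 minus that of MCF10A was 1.60 ± 0.27 in T (adjusted p = 0.00211) and 1.71 ± 0.27 in P (adjusted p = 0.000938), and EIF4E was the 1 member that passed in each fraction, where 3.31% and 3.6% of tested genes did. The difference held without each library in turn (1.43 to 1.75 in T and 1.54 to 1.90 in P) and without the 4 libraries that stood apart (1.37 and 1.73). With only the libraries compared in the fit, it was 1.71 in P with an adjusted p of 0.0581. EIF4ENIF1 had estimates in the same direction that did not pass (0.75 ± 0.26 and 0.82 ± 0.26, adjusted p = 0.124 and 0.0825). Under H and under NPP 0 members differed between lines in T (0.266% and 0.056% of tested genes) and in P (0.329% and 0.126%). EIF4E in T was the only member at an unadjusted p under 0.05 (0.77 ± 0.27 for H and 0.58 ± 0.27 for NPP). Of tested genes, 7.47% and 4.13% were so in T and 6.49% and 4.4% in P. DESeq2 called 0 members there, beside 0.888% and 0.319% of tested genes in T and 0.92% and 0.407% in P. The normoxic difference between polysomal and total mRNA differed between the lines for 0 of 10 members (0.00699% of tested genes, edgeR), with 0 at an unadjusted p under 0.05 (1.94% of tested genes) and 0 calls by DESeq2 (0.028%).

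Among 23 partners and regulators of eIF4F and cap binding, 22 were tested in each line, and EIF4E1B, a germline homologue of EIF4E, had at most 1 count in any library. Under HPP, 2 rose and 0 fell in MCF10A T, 2 rose and 2 fell in MCF10A P, 3 rose and 0 fell in MDA-MB-231 T, and 2 rose and 3 fell in MDA-MB-231 P, beside 7.43%, 10.2%, 6.31% and 9.71% of all tested genes that rose and 7.47%, 11.9%, 6.91% and 9.73% that fell. The median log2 fold change of the list was -0.04, -0.24, 0.05 and -0.03. The 3 genes EIF4A1, PABPC4 and PDCD4 passed in both lines. EIF4A1, the helicase of eIF4F, fell in P by 1.26 in MCF10A and by 0.67 in MDA-MB-231 (adjusted p = 0.0331 and 0.00733), and its HPP estimates in T were 0.11 and -0.28. PABPC4, a poly(A)-binding protein, fell in P by 1.70 in MCF10A and by 0.93 in MDA-MB-231 (adjusted p = 0.00205 and 0.0011). PDCD4, an inhibitor of eIF4A, rose in P by 1.32 in MCF10A and by 1.29 in MDA-MB-231 (adjusted p = 0.0164 and 0.00121), and in T by 1.25 in MDA-MB-231 (adjusted p = 0.00267). Other calls under HPP, named after their values were seen, passed in 1 line. MKNK2, a kinase of eIF4E, rose in MCF10A by 2.26 in T and 1.25 in P, and PAIP2, an inhibitor of poly(A)-binding protein, by 0.89 in T. Without the 4 MCF10A libraries that stood apart, the calls of EIF4A1 (-1.05), PABPC4 (-1.50), PDCD4 (1.34) and MKNK2 (1.89 in T and 1.43 in P) held, that of PAIP2 did not (0.76, adjusted p = 0.0819), and PDCD4 passed in T as well (1.26, adjusted p = 0.00641). In MDA-MB-231 EIF4B, a cofactor of eIF4A, rose in T by 0.82, PAIP2B rose in T and P by 0.73 and 1.02, and the poly(A)-binding protein PABPC1 fell in P by 0.90. A difference of the HPP response between the lines passed for 0 of the 22 in T and in P (edgeR on all 32 libraries, 3.31% and 3.6% of tested genes). MKNK2 in T (-1.49, adjusted p = 0.0788) and PABPC4 in P (0.76, adjusted p = 0.172) were at an unadjusted p under 0.05, beside 15.4% and 16.7% of tested genes.

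Of 12 genes of mTORC1 and its inputs, 11 were tested in MCF10A and 12 in MDA-MB-231, and 1 passed in any treatment contrast, TSC1 in MDA-MB-231 P under HPP (0.50 ± 0.15, adjusted p = 0.0343). Of all tested genes, 19.4% were called in that contrast and 9.71% rose. Over the treatment contrasts in T and P, the called share of all tested genes ran from 0.555% to 22.2%. TSC1 is a subunit of the complex that restrains mTORC1. The list median under HPP was 0.06 and -0.32 in MCF10A T and P and 0.09 and 0.04 in MDA-MB-231. The 3 genes with the smallest p-values were TSC1, DDIT4 and DDIT4L. DDIT4, the mTORC1 inhibitor REDD1, was at 453 and 625 CPM in N and 1524 and 1663 CPM in H of MCF10A T (1.56 ± 0.42, adjusted p = 0.113, and 1.57 with adjusted p = 0.103 in P). Without the 4 libraries DDIT4 passed in T (1.57, adjusted p = 0.0175) and did not in P (1.35, adjusted p = 0.21). Its homologue DDIT4L was at 1.00 and 2.10 CPM in N and 3.69 and 4.15 CPM in H of MDA-MB-231 T (1.38 ± 0.47, adjusted p = 0.208).

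The genes whose pattern was most like that of a member were sought over the 32 libraries by the Pearson correlation of log2 CPM after the mean of each line was subtracted, among 12373 genes tested in both lines. The libraries share treatments, fractions and the transcript-length differences, so these coefficients are descriptions. For EIF4E they were AGFG1 (0.965), EIF3J (0.96) and PSME3 (0.959), which were at 0.889 to 0.935 within MDA-MB-231 alone. For EIF4EBP2 the nearest was PABPC1 (0.95), a pyrimidine-tract mRNA, followed by CHRNA10 (0.899). For EIF4EBP1 they were DUSP23, LAGE3 and MZT2A (0.965 to 0.961), for EIF4E2 MRPL17, PTRH2 and COPZ1 (0.937 to 0.909), and for EIF4ENIF1 ARMC8, CASKIN2 and CTPS1 (0.927 to 0.908). EIF4G3 was nearest to USP47 at 0.958, with 0.984 within MCF10A but 0.349 within MDA-MB-231. The nearest genes of EIF4G1 (SEC16A, 0.858), EIF4E3 (ZDHHC2, 0.915), EIF4EBP3 (DNAJC28, 0.728) and EIF4G2 (INVS, 0.644) completed the set, and EIF4G2 had the weakest match of the 10.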

How the data were processed

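Total and polysomal mRNA of both lines was sequenced from poly(A)-selected, unstranded libraries. The authors mapped paired-end reads with STAR 2.5.1b to GRCh38 with GENCODE 24 and quantified genes with RSEM 1.2.28, per their methods; the submitters' processing notes name GRCh37. The deposited values are expected counts per gene, given as whole numbers and not normalised. All 32 columns were matched to samples by barcode. Samples were grouped by line, condition and fraction from the labels, in 16 groups of 2 biological replicates. The p-values measure the spread between replicate libraries, in which differences between cultures and between libraries are not told apart. Protein-coding rows were filtered (filterByExpr), scaled by TMM and tested with edgeR 4.0.16 (R 4.3.3) quasi-likelihood tests per line, and jointly for line differences, with a threshold of 0.05 where the authors used a looser one for MDA-MB-231. Standard errors are the fold change divided by the root of F. The fits had 8, 8 and 16 residual degrees of freedom and a common biological coefficient of variation of 0.325 (MCF10A), 0.15 (MDA-MB-231) and 0.253 (joint). RPKM used canonical transcript lengths of GENCODE 44. On simulated counts, the MCF10A total HPP contrast (13124 genes) recovered 75% of genes changed by 2 and 0% of those changed by 0.5 (log2), and that of MDA-MB-231 (13510 genes) 100% and 9%. The simulation gave all genes of a line the same dispersion and the same mean in T and P, and changed only genes with higher counts. It held no transcript-length differences between libraries, so these rates do not give the power of the real fits. Alternatives were DESeq2 1.42.0, other scaling, no filter, fewer libraries, replicate blocks and, chosen after seeing the data, an offset for transcript length, a block within fractions and leaving out the 4 libraries that stood apart. All 10 members are described. For the partner list, counts are given for HPP against N and for its difference between the lines, and for the mTORC1 list over the treatment contrasts. Calls of these lists in other contrasts are not given. Values are given for genes called in both lines or else for the 3 smallest p-values. The members and lists were chosen with earlier results of these data known. Promoters were matched by symbol for 9 of 10 members, and EIF4EBP1 had no entry.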

Additional observations from a re-analysis of the deposited data

Results flagged for a closer look

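The change of EIF4E under hypoxia with PP242 differed between the lines by a test of the difference itself: MDA-MB-231 minus MCF10A was 1.60 on the log2 scale in total mRNA and 1.71 in polysomal mRNA, with adjusted p of 0.00211 and 0.000938 (edgeR, joint fit of 32 libraries). Each line came in a table of its own, so line and table cannot be told apart.

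Reads were also assigned to a row outside the members, the processed pseudogene EIF4EP2, with 4 to 73 counts per library and a median of 40 over the 32 libraries. This was 0.444% to 1.30% of the counts of EIF4E and EIF4EP2 together, and its log2 CPM followed that of EIF4E with a Pearson correlation of 0.922 over the 32 libraries, which share depth and treatment. The other 10 pseudogene rows of the members had at most 2 counts. Whether these reads come from EIF4E was not tested.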

How the results depend on the processing

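No fold change of a called member reversed under any alternative run. Of 29 called fold changes, 29 kept their call with DESeq2, 28 with RLE scaling, 24 without the count filter, 25 with the offset for transcript length, 18 with only the libraries compared, 29 with a replicate block and 29 with a replicate block within each fraction, and 14 of the 16 from fits of MCF10A or of both lines kept it without the 4 libraries that stood apart. Counts of called members that moved by over 1.5 times are given as main and alternative, with the members gained and, in percent, the share of all tested genes called under the alternative. With DESeq2, MCF10A P HPP against H went from 1 to 2 (EIF4ENIF1, 12%), MCF10A T NPP 0 to 1 (EIF4E, 2.84%), MDA-MB-231 P H 0 to 1 (EIF4EBP1, 5.23%) and NPP 0 to 2 (EIF4E2 and EIF4EBP2, 4.53%), the line difference in P HPP 1 to 2 (EIF4ENIF1, 6.9%) and in T N 3 to 5 (EIF4EBP2 and EIF4G2, 42.5%). With RLE scaling, MCF10A T HPP against H went from 2 to 1 (3.58%) and the line difference in T N 3 to 5 (EIF4EBP2 and EIF4G2, 40.4%). At an adjusted p under 0.10, MCF10A P HPP against H went from 1 to 2, MDA-MB-231 P H 0 to 1 and NPP 0 to 1, the line difference in P HPP 1 to 2 and in T N 3 to 6. The share of all tested genes at this looser threshold is not given. It can only be equal or larger there, so these moves are not read as particular to the members. Without the count filter, MCF10A T HPP against H went from 2 to 1 (2.34%), MDA-MB-231 P H 0 to 1 (EIF4EBP1, 4.27%), HPP 4 to 2 (15.9%) and NPP 0 to 1 (EIF4EBP2, 2.96%). With the length offset, MCF10A P HPP went from 2 to 5 (EIF4G1, EIF4EBP2 and EIF4EBP3, 34.4%), HPP against H 1 to 4 (EIF4EBP2, EIF4EBP3 and EIF4ENIF1, 15.3%) and NPP 0 to 1 (EIF4EBP2, 6.13%), the line difference in P HPP 1 to 2 (EIF4ENIF1, 8.55%) and in T N 3 to 6 (EIF4EBP2, EIF4G2 and EIF4G3, 49.5%). With only the libraries compared, MCF10A P HPP went from 2 to 1 (11.9%) and HPP against H 1 to 0 (0.282%), MCF10A T HPP 2 to 1 (8.53%) and HPP against H 2 to 0 (0%), MDA-MB-231 T HPP against H 1 to 0 (1.01%), the line difference in P HPP 1 to 0 (0.497%) and in T N 3 to 7 (EIF4E2, EIF4EBP2, EIF4G2 and EIF4G3, 59.2%). Without the 4 libraries that stood apart, MCF10A P HPP against H went from 1 to 3 (EIF4EBP3 and EIF4ENIF1, 9.58%) and NPP 0 to 1 (EIF4EBP2, 1.85%), MCF10A T HPP against H 2 to 1 (5.01%) and the line difference in T N 3 to 6 (EIF4E2, EIF4EBP2 and EIF4G2, 54.7%). Beside those given with the results, the calls lost were, with only the libraries compared, EIF4E in MDA-MB-231 T HPP against H (adjusted p = 0.123), EIF4E2 in MDA-MB-231 P against T (0.0614), P HPP (0.0684) and P HPP against H (0.0504), EIF4ENIF1 in MCF10A T HPP against H (0.292) and the line difference of EIF4G2 in P N (0.182). Without the count filter they were EIF4E in MDA-MB-231 P HPP (0.137), EIF4ENIF1 in MCF10A T HPP against H (0.0927, and 0.0535 with RLE scaling) and EIF4G2 (0.07). With the length offset it was EIF4G2 (0.0654). The cause of these moves was not tested.

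With 1 library left out at a time, the lone library of a group is assumed to vary like the others. The number of called members rose or fell in some contrasts, and it fell most in MDA-MB-231 P HPP. The share of all tested genes called in these fits is not given, so the moves are not read as particular to the members.

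The replicate numbers pair libraries only in part: deviations of same-numbered libraries correlated above 0.1 in 6 of 6 pairs of MCF10A T groups, in 3 of 6 pairs of P groups and in 2 of 16 pairs of T with P, and in MDA-MB-231 in 4 of 6, 4 of 6 and 11 of 16. The correlations of T with P ran from -0.641 to 0.214 in MCF10A and from -0.105 to 0.348 in MDA-MB-231. The replicate block moved MDA-MB-231 P H from 0 to 1 (EIF4EBP1, 4.52%) and NPP from 0 to 1 (EIF4EBP2, 3.34%), and a replicate block within each fraction moved MCF10A P HPP from 2 to 4 (EIF4E2 and EIF4EBP1, 36.5%), P HPP against H 1 to 3 (EIF4EBP1 and EIF4ENIF1, 14.9%), MDA-MB-231 P NPP 0 to 1 (EIF4EBP2, 3.61%) and the line difference in P HPP 1 to 2 (EIF4ENIF1, 9.23%) and in T N 3 to 5 (EIF4E2 and EIF4EBP2, 50.6%). With a replicate block by culture, the 3 calls of polysomal against total mRNA in MDA-MB-231 kept their call. With 2 replicates per group, small changes such as those of EIF4E2 lay at the limit of what the fits could call.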
